A study of Homo sapiens with 3 samples.

Results

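The genes described here carry peptides to the cell surface on MHC class I molecules. They are 9 genes, chosen by name from the 32738 gene rows of the deposited tables: B2M, HLA-B, HLA-C, HLA-E, TAP1, TAP2, TAPBP, PSMB8 and PSMB9. All 9 were found, on 10 rows, because TAP2 stands on 2 rows and the second held 0 UMIs in all 3 libraries. B2M lies on chromosome 15 and the other 8 on chromosome 6. The cells were Kelly, a human neuroblastoma cell line that carries MYCN amplification and an activated receptor kinase, ALK, and they were profiled by droplet single-cell RNA sequencing of polyA RNA. Sensitive cells had only the vehicle DMSO, intermediate resistant cells grew in 500 nM of TAE684, a compound that blocks ALK, and fully resistant cells grew in 1 µM of it. All cells were in RPMI-1640 with fetal bovine serum, penicillin and streptomycin. There was 1 library per state and no replicate, so intervals below cover counting error only, and resistance, dose and culture cannot be told apart. Whether each resistant population came from 1 clone or from a pool is not given in the sources used here.

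An MHC class I molecule is a heavy chain, encoded by a classical gene such as HLA-B or HLA-C or by the less variable HLA-E, bound to the invariant light chain B2M. The proteasome cuts proteins into peptides, the TAP1 and TAP2 heterodimer pumps them into the endoplasmic reticulum, and TAPBP (tapasin) holds an empty class I molecule at the pump until a peptide fits. PSMB8 and PSMB9 are catalytic subunits that replace constitutive ones after interferon exposure and form the immunoproteasome. Neuroblastoma is known for low class I, and CD8+ T cells read class I while natural killer cells respond to its loss.

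Called cells numbered 5415 (sensitive), 6288 (intermediate resistant) and 6331 (fully resistant), with a median of 16008, 15660.5 and 16014 UMIs per cell in that order. A UMI marks 1 captured RNA molecule, and a called cell had at least 5000 UMIs, at least 500 genes and at most 20% mitochondrial UMIs. Levels are UMIs summed over called cells and given per 1000000 UMIs of all genes in those cells (CPM), of which the 3 libraries held 95119772, 102449567 and 106163582. All 8 noradrenergic neuroblastoma markers, HAND2 and GATA3 among them, were above 5 CPM in every library. Of 5 markers of Schwann cells or glia, 0 were above 5 CPM in sensitive, 0 in intermediate resistant and 1 in fully resistant cells, while SOX10, the defining factor of that lineage, had 0, 0 and 2 UMIs in the same order. Whether this difference bears on the class I genes was not tested. Markers of mesenchymal cells or fibroblasts summed to 25.6, 17.7 and 24.7 CPM in that order, those of antigen-presenting cells to 2.40, 4.50 and 0.443, and those of endothelium to 0.326, 0.215 and 0.763. Barcodes shared between the called cells of 2 libraries numbered 38 for sensitive and intermediate, 62 for sensitive and fully resistant, and 56 for intermediate and fully resistant, and leaving them out moved the B2M log2 ratio of fully resistant over sensitive to -1.76, the same value as with them. Barcodes of 1 to 50 UMIs, which hold free RNA and debris, carried leukocyte transcripts in the sensitive and intermediate resistant libraries, as given in values further on.

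The promoters of B2M, HLA-B and HLA-C are printed because HLA-B and HLA-C chains each pair with B2M. The RNA levels of B2M and HLA-C took different courses in these libraries, while HLA-B had few UMIs in cells. RefSeq promoter windows on build GRCh38.p14, of 250 bases before to 50 after the gene start, were found for 8 of the 9 genes. B2M lies on chr15:44711267-44711566 (plus strand), HLA-B on chr6:31357130-31357429 (minus strand) and HLA-C on chr6:31272043-31272342 (minus strand). Each is written 5′ to 3′ on the strand of the gene. Capitals mark matches, on either strand and with overlaps kept, to AANNGAAA (the core of an interferon response element), a kappaB-type site (GGG and CC with 5 free letters between), TGACG (the core of a cyclic AMP response element) and CCAAT, the letters that NFY binds.
B2M: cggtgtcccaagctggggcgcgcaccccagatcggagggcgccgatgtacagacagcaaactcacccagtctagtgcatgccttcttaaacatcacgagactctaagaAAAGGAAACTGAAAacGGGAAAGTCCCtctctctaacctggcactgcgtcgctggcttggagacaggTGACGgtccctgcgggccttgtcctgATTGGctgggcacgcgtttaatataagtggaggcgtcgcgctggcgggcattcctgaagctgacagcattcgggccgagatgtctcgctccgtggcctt
HLA-B: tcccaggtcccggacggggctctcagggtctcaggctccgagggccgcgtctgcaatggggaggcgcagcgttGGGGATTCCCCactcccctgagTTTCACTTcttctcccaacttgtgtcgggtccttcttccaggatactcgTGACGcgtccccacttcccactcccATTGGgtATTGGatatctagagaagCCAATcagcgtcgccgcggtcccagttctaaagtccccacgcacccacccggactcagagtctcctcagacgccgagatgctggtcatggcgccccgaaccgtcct
HLA-C: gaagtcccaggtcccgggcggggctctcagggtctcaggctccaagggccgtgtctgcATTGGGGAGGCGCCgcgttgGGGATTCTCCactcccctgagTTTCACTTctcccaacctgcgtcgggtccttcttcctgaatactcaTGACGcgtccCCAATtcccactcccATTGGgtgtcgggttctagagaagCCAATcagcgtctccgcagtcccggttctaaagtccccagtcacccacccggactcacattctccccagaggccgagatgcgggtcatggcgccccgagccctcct

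All 4 motifs were present in each of the 3 windows, in the order kappaB-type, interferon-type, TGACG and CCAAT in both HLA genes apart from 1 further CCAAT match upstream in HLA-C, whereas in B2M the interferon-type letters (-142 to -135 and -136 to -129, counted from the gene start) lie before the kappaB-type ones. The upstream CCAAT match of HLA-C shares a base with a kappaB-type match, and the interferon-type pair of B2M overlap each other. Of 35116 promoter windows of the same length, 22.8% held AANNGAAA, 58.7% the kappaB-type letters, 24.6% TGACG and 34.6% CCAAT, and 0.780% held all 4. The HLA-B and HLA-C windows were identical in 269 of 304 aligned columns (88.5%). A match describes letters and not a bound site, and the sequence is that of the reference genome, not of Kelly cells.

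B2M, the light chain that every class I molecule needs, was lower at each step of resistance. Its 26765 UMIs in sensitive, 15103 in intermediate resistant and 8804 in fully resistant cells gave 281 CPM (95% Poisson interval 278 to 285), 147 (145 to 149.8) and 82.9 (81.2 to 84.7). The 3 intervals do not overlap. The fully resistant level was 3.39-fold lower than the sensitive level (3.31 to 3.48), the intermediate resistant level 1.91-fold lower than the sensitive level (1.87 to 1.95), and the fully resistant level 1.78-fold lower than the intermediate resistant level (1.73 to 1.82). On the log2 scale these ratios were -1.76, -0.93 and -0.83. Among the genes tested, 2.80% had a lower ratio of fully resistant over sensitive, 5.64% a lower ratio of intermediate resistant over sensitive and 5.38% a lower ratio of fully over intermediate resistant.

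HLA-C, 1 of the classical heavy chains, did not follow B2M. It had 414 UMIs in sensitive, 1375 in intermediate resistant and 22 in fully resistant cells, which were 4.35 CPM (3.94 to 4.79), 13.4 (12.7 to 14.2) and 0.207 (0.130 to 0.314). The intermediate resistant library was the highest and the fully resistant the lowest, with no overlap of intervals. The fully resistant level was 21.0-fold lower than the sensitive level (13.7 to 33.9) and 64.8-fold lower than the intermediate resistant level (42.6 to 104), while the intermediate resistant level was 3.08-fold higher than the sensitive level (2.76 to 3.45). HLA-C stood at the edge of both comparisons with the intermediate library: 98.8% of tested genes had a lower ratio of intermediate resistant over sensitive, and 0.198% a lower ratio of fully over intermediate resistant.

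Class I heavy chain genes are close copies of each other and reads between them may be split or lost, and the alleles of a cell line can differ from the reference, so the division of UMIs among the heavy chain genes, HLA-B and HLA-C included, is uncertain. In a GRCh38 annotation, matched by gene name, HLA-B and HLA-C exons overlap on the same strand. The deposited counts were made on build hg19, and whether the annotation used there has this overlap was not checked.

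HLA-B was close to absent from the cells of all 3 libraries. There were 16 UMIs in sensitive, 11 in intermediate resistant and 5 in fully resistant cells (0.168, 0.107 and 0.0471 CPM), never more than 1 in a cell. HLA-E, which presents leader peptides of other class I chains to natural killer cells, had 18, 9 and 11 UMIs in the same order (0.189, 0.0879 and 0.104 CPM). For HLA-E all intervals overlapped, and for HLA-B the ratio of fully resistant over sensitive rested on 5 against 16 UMIs.

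**Figure D1:**
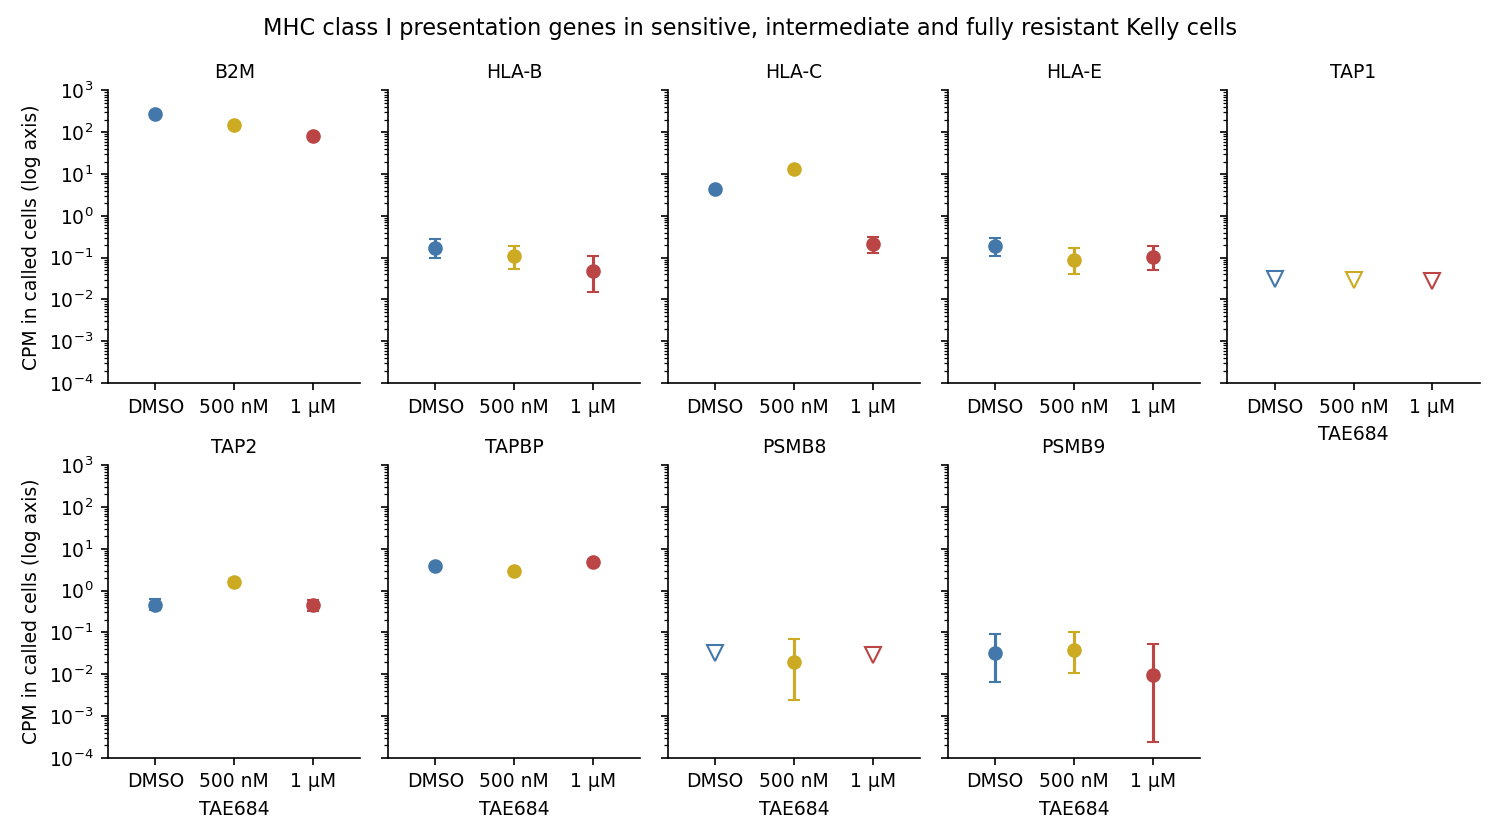
Level of each class I gene in called cells, in CPM on a log axis, by library from DMSO (sensitive) to 500 nM (intermediate resistant) and 1 µM TAE684 (fully resistant); bars are exact Poisson 95% intervals, often smaller than the point, and open triangles mark 0 UMIs, drawn at the level of 3 UMIs. B2M steps down through 281, 147 and 82.9 CPM, HLA-C is highest at 13.4 CPM in the intermediate resistant library, and TAP1 and PSMB8 lie at or near 0.

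The peptide pump and its loading chaperone were sparse. TAP1 was listed at 0 UMIs in the called cells of every library, and 1 UMI, in the intermediate resistant library, was found over all barcodes. A count of 0 allows up to 0.0315 CPM (sensitive), 0.0293 (intermediate resistant) and 0.0283 (fully resistant), at 3 UMIs each. Why the row is at 0 was not tested. In the GRCh38 annotation TAP1 exons overlap those of TAPSAR1 on the opposite strand, which held 1, 3 and 0 UMIs in the same order.

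TAP2, the partner of TAP1, had 44 UMIs in sensitive, 163 in intermediate resistant and 47 in fully resistant cells (0.463, 1.59 and 0.443 CPM). The intermediate resistant library stood apart with 3.44-fold the sensitive level (2.45 to 4.92), and the fully resistant level was 3.59-fold lower than the intermediate one (2.58 to 5.08). Fully resistant and sensitive cells did not differ beyond counting error, at a ratio of 0.957 (0.621 to 1.48). All 3 levels lie below the minimum of 5 CPM used for calls. TAPBP had 362, 301 and 516 UMIs in that order (3.81, 2.94 and 4.86 CPM), so that the fully resistant level was 1.28-fold the sensitive one (1.11 to 1.47) and 1.65-fold the intermediate one (1.43 to 1.91). TAPBP was thus highest in the library in which B2M and HLA-C were lowest.

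Both immunoproteasome members were at the limit of detection. PSMB8 had 0, 2 and 0 UMIs and PSMB9 had 3, 4 and 1 in sensitive, intermediate resistant and fully resistant cells. PSMB8 and PSMB9 exons overlap each other on opposite strands in the GRCh38 annotation. PSMB9 and TAP1 are read away from each other, from RefSeq start sites 488 bases apart, on GRCh38.p14. No ratio is given for PSMB8, and that of PSMB9 rests on too few UMIs to be read.

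A call was made by size alone, at a level of at least 5 CPM in the higher of 2 libraries and a ratio of at least 1.5. In fully resistant over sensitive cells 1 of the 9 genes, B2M, reached the minimum and was called lower, against 14.7% of 9800 genes tested, and 0 were called higher, against 15.2%. In intermediate resistant over sensitive cells 2 reached it: B2M was called lower, against 12.2% of 9529 genes, and HLA-C higher, against 5.83%. In fully over intermediate resistant cells B2M and HLA-C were both called lower, against 8.13% of 9614 genes, and 0 higher, against 13.8%. HLA-C passed the minimum only through its high level in the intermediate resistant library, and the large difference between fully resistant and sensitive cells is not among the calls because its sensitive level was 4.35 CPM. The median log2 ratio of the genes that passed was -1.76, 0.35 and -3.42 in these comparisons, beside 0.08, -0.08 and 0.15 over all genes tested. The comparisons share libraries and are not independent of each other.

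B2M was also read per cell, where both its mean and the share of cells with a UMI were lower at each step. When cells were thinned by random draws to 5000 UMIs apiece, which left out no cell, B2M averaged 1.45 UMIs per sensitive, 0.756 per intermediate resistant and 0.426 per fully resistant cell. At least 1 B2M UMI was found in 73.7% (exact binomial 95% interval 72.5 to 74.9), 51.2% (49.98 to 52.5) and 33.8% (32.6 to 34.9) of the thinned cells, and in 95.9%, 85.9% and 69.6% of cells before thinning. The variance over the mean was 1.19, 1.11 and 1.07 in the same order. At means this low it lies close to 1 even where cells differ, so a value near 1 does not show that cells were alike. It lay above 1, the value from counting error alone, in every library. How far the cells differed was not tested. The highest thinned count in a cell was 10, 7 and 5. No cell type in these libraries should lack B2M, so none gives a background for the shares of cells with B2M. The B2M level in barcodes of 1 to 50 UMIs, given further on, was at or above that in cells. It gives no background for the shares either.

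**Figure D2:**
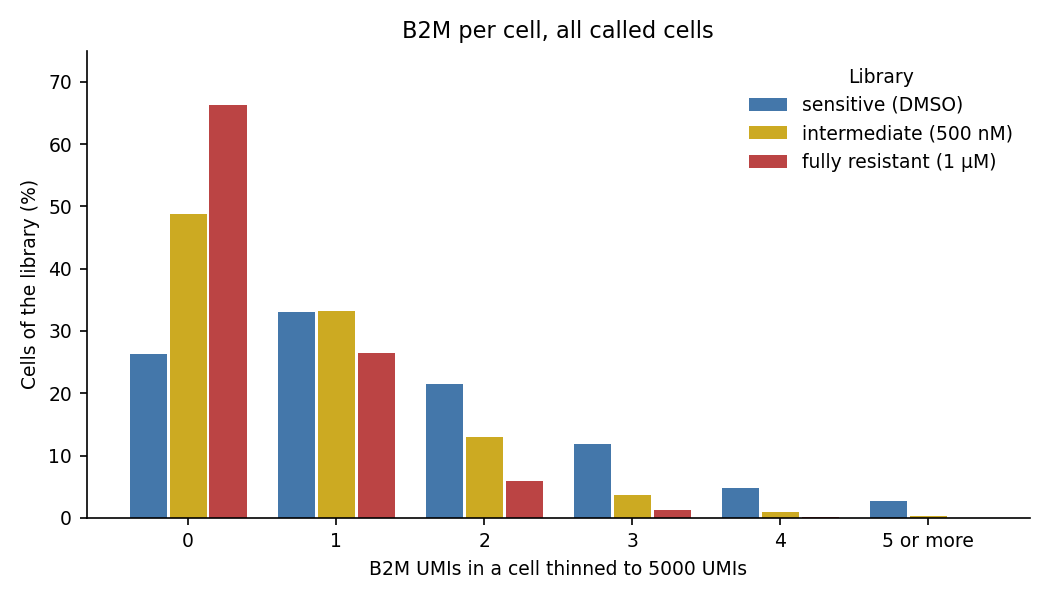
Percentage of called cells (vertical axis) with each number of B2M UMIs after thinning to 5000 UMIs per cell (horizontal axis), for 5415 sensitive (blue), 6288 intermediate resistant (yellow) and 6331 fully resistant cells (red). Cells with 0 B2M UMIs make up 26.3%, 48.8% and 66.3% of these libraries, and no second peak of cells with high counts is seen in any of them.

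HLA-C was found in fewer cells. In thinned cells the share with an HLA-C UMI was 2.22% (1.84 to 2.64) in the sensitive library, 6.33% (5.74 to 6.96) in the intermediate one and 0.111% (0.0445 to 0.228) in the fully resistant one, and before thinning in 6.98%, 18.5% and 0.348%. TAPBP was seen in 1.92%, 1.42% and 2.46% of thinned cells and TAP2 in 0.277%, 0.700% and 0.142%. Across cells of 1 library B2M and HLA-C counts were nearly unrelated, with a Pearson r of 0.0325 over the 5415 sensitive cells, where both counts come from the same thinned cell and are sparse.

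Within each library, B2M was compared between cells with and without a UMI of VIM, the intermediate filament gene that was itself 14.9-fold lower in fully resistant than in sensitive cells. The 1134 sensitive cells with a VIM UMI averaged 1.54 thinned B2M UMIs against 1.42 in the 4281 without. The 110 fully resistant cells with one averaged 0.555 against 0.424 in 6221 without, and the 105 intermediate resistant cells 0.771 against 0.756 in 6183. These gaps within a library are small beside those between libraries. Cells with a UMI of a list of 12 G2 and M phase genes averaged 1.44 B2M UMIs against 1.63 in the 276 sensitive cells without, 0.773 against 0.640 in intermediate resistant and 0.427 against 0.420 in fully resistant cells. A cell can lack such a UMI at low capture, so both splits are descriptions.

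Barcodes of 1 to 50 UMIs, too small for cells, were read next. There were 464659 (sensitive), 487571 (intermediate resistant) and 482861 (fully resistant) such barcodes, with 2712717, 3112154 and 2966094 UMIs. Scaled to these UMIs, B2M stood at 492 CPM (sensitive), 496 (intermediate resistant) and 84.0 (fully resistant). That was 1.75 times the level in cells (1.65 to 1.85), 3.36 times (3.19 to 3.54) and 1.01 times (0.889 to 1.15). Free RNA of the fully resistant library therefore held B2M at the level of its cells, while in the other libraries it held more.

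The same barcodes held class I genes that the cells practically lacked. HLA-B was at 9.22 CPM (25 UMIs) in the sensitive and 5.14 (16 UMIs) in the intermediate resistant library, which were 54.8 and 47.9 times the level in cells, and at 0.337 CPM (1 UMI) in the fully resistant library. HLA-E was at 5.53, 3.21 and 0.337 CPM in the same order, PSMB8 at 2.21, 1.93 and 0, and PSMB9 at 1.84, 2.89 and 0. HLA-C was at 16.6, 23.8 and 0 CPM. PTPRC (CD45), the pan-leukocyte phosphatase, was at 5.90, 10.6 and 0 CPM there.

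The 8 leukocyte markers together (PTPRC, CD3E, CD3D, MS4A1, LYZ, CD68, AIF1 and NKG7) were read in the same small barcodes. They summed to 16.2 CPM in the sensitive library, with 7 of 8 detected, to 29.2 CPM in the intermediate resistant library, with 7 of 8 detected, and to 1.01 CPM in the fully resistant library, with 1 of 8 detected. The 1 marker detected in the fully resistant library was CD68, with 3 UMIs. In called cells the 8 markers summed to 2.54, 1.86 and 1.53 CPM. Most of that was CD68, with 212 of 242 UMIs in sensitive, 122 of 190 in intermediate resistant and 150 of 162 in fully resistant cells. CD3E and MS4A1 were at 0 in the cells of every library, and PTPRC had a UMI in 5, 7 and 2 cells. Barcodes of 1 to 50 UMIs with a marker UMI numbered 42, 85 and 3, none shared between libraries. Those of the sensitive library held 1128 UMIs, 26 from B2M, those of the intermediate resistant library 1748, 52 from B2M, and those of the fully resistant library 81, 0 from B2M. Of genes chosen after their values were seen, the lymphocyte genes GNLY and LTB were at 17.3 and 16.6 CPM in the sensitive and 14.1 and 29.2 in the intermediate resistant library, and at 0 UMIs in the fully resistant one.

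**Figure D3:**
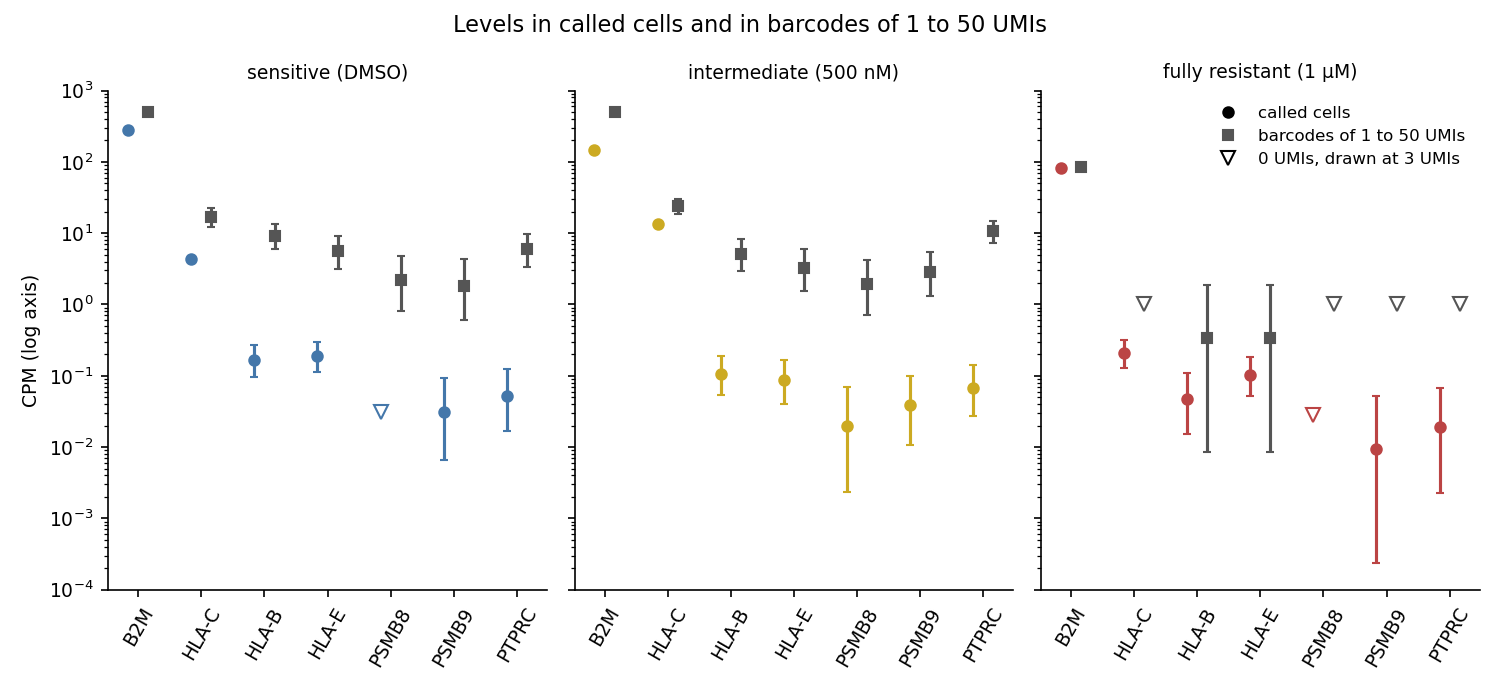
Levels in CPM on a log axis in called cells (coloured circles) and in barcodes of 1 to 50 UMIs (grey squares) for each library, with exact Poisson 95% intervals; open triangles mark 0 UMIs, drawn at 3 UMIs. In the sensitive and intermediate resistant libraries HLA-B, HLA-E, PSMB8, PSMB9 and PTPRC lie far higher in small barcodes than in cells.

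The excess varied with barcode size. In the intermediate resistant library B2M reached 2041 CPM in barcodes of 11 to 30 UMIs, where HLA-C was at 91.8, HLA-B at 27.5 and the leukocyte markers at 119 CPM. The markers of that library were highest, at 225 CPM, in barcodes of 51 to 200 UMIs, where B2M was at 577 CPM. In the sensitive library B2M was highest in barcodes of 51 to 200 UMIs, at 999 CPM, and the leukocyte markers were highest, at 264 CPM, in those of over 200 and up to 1000. In barcodes of over 1000 UMIs that fell short of the cell limit the markers stood at 1.56 CPM (sensitive), 1.57 (intermediate resistant) and 1.49 (fully resistant), and B2M at 265, 122 and 65.0 CPM. The order of the 3 libraries in B2M was thus the same in the largest uncalled barcodes as in cells.

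**Figure D4:**
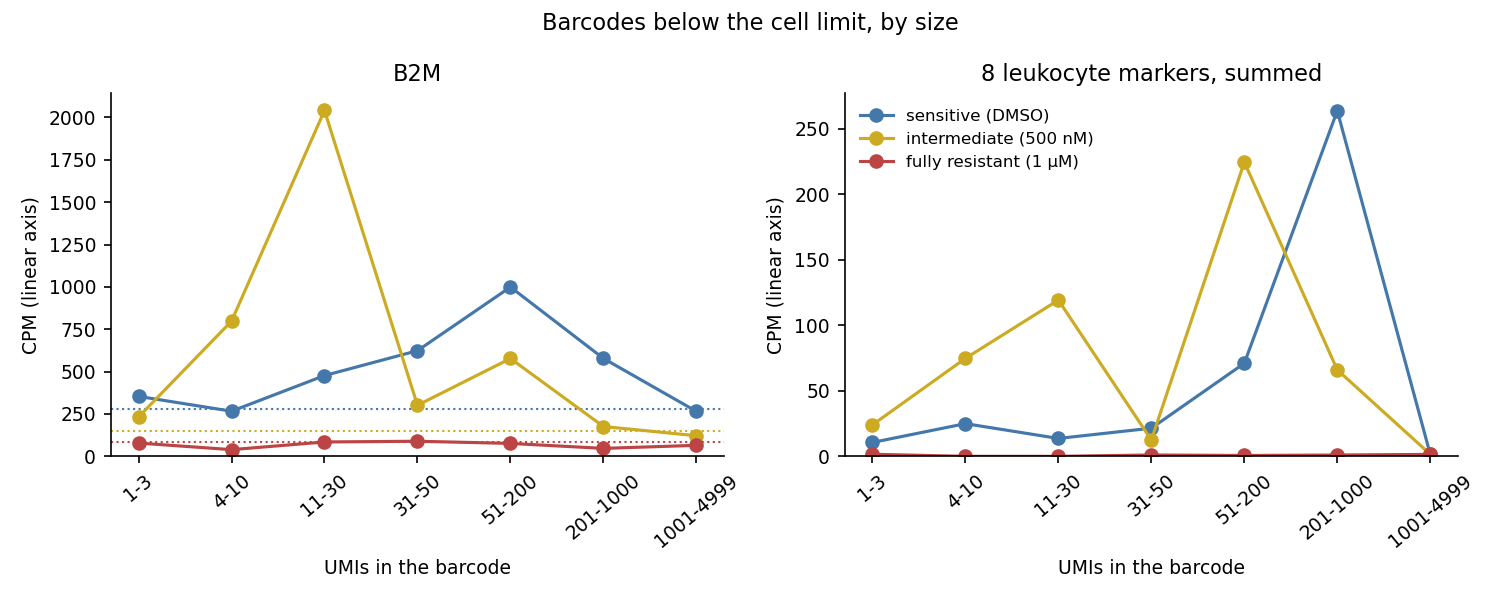
B2M (left) and the summed leukocyte markers (right) in CPM on linear axes, by the number of UMIs in a barcode below the cell limit, for the sensitive (blue), intermediate resistant (yellow) and fully resistant library (red); dotted lines give B2M in called cells. Both peak in barcodes of at most 1000 UMIs in the sensitive and intermediate resistant libraries and stay low in the fully resistant one.

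Subtracting free RNA at an assumed 100 UMIs per cell gave a B2M log2 ratio of -1.76 for fully resistant over sensitive and -0.95 for intermediate resistant over sensitive. That amount was set and not estimated. It is small beside the median UMIs of a cell, so these ratios could move little. The ratio of B2M to HLA-B in these barcodes varied with their size, so the share of B2M in cells that could come with leukocyte material was not estimated. In the sensitive and intermediate resistant libraries HLA-B, HLA-E, PSMB8 and PSMB9 had few or no UMIs in cells and higher levels in barcodes of 1 to 50 UMIs. They are not read as expression by Kelly cells. A higher level in these barcodes does not set them apart by itself. B2M and HLA-C stood there at 1.75 and 3.81 times the level in cells (sensitive) and at 3.36 and 1.77 times (intermediate resistant). In the fully resistant library HLA-E had 11 UMIs in cells and 1 in these barcodes.

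Of 14 other class I and class I-like chains, 2 were at 5 CPM or more, FCGRT among them. FCGRT, the neonatal Fc receptor chain that also pairs with B2M, had 6.50 CPM in sensitive, 6.27 in intermediate resistant and 8.60 in fully resistant cells, and was not called in any comparison. Below the minimum, and chosen after their values were seen, the stress ligands ULBP2 and ULBP1, which the natural killer receptor NKG2D binds, had 149 and 28 UMIs in sensitive, 200 and 57 in intermediate resistant and 30 and 2 in fully resistant cells. ULBP2 was 5.54-fold lower in fully resistant than in sensitive cells (3.73 to 8.50).

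The loading machinery of the endoplasmic reticulum did not fall with B2M. Of 8 listed genes, 5 were tested in fully resistant over sensitive cells, with 1 called higher, 0 lower and a median log2 ratio of 0.50 beside 0.08 over all genes. The shares over all genes were 15.2% called higher and 14.7% lower. PDIA3, a disulfide isomerase of the loading complex, was the gene called, at 129 CPM in fully resistant against 77.5 in sensitive cells. The chaperones CALR and CANX were at 286 and 120.1 CPM in fully resistant against 202 and 82.2 in sensitive cells, below the ratio for a call, and the peptidase HM13 was at 57.7 against 41.4 and UGGT1, which recognises unfolded glycoproteins, at 6.17 against 6.30. In intermediate resistant over sensitive cells 0 of 5 were called, beside 5.83% called higher and 12.2% lower over all genes. The trimming peptidases ERAP1 and ERAP2 had 1.34 and 0.160 CPM in fully resistant and 1.43 and 0.231 CPM in sensitive cells. TAPBPL, a tapasin relative that edits peptides, had 1.75 CPM in sensitive, 0.791 in intermediate resistant and 1.12 in fully resistant cells, all below the minimum.

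Among 4 inducible proteasome partners, PSMB10 alone was called, and it was lower in both resistant libraries. Of all genes tested, 14.7% were called lower in fully resistant and 12.2% in intermediate resistant over sensitive cells. PSMB10, the third immunoproteasome subunit, had 1854 UMIs in sensitive, 1110 in intermediate resistant and 877 in fully resistant cells (19.5, 10.8 and 8.26 CPM). The fully resistant level was 2.36-fold lower than the sensitive one (2.18 to 2.56) and the intermediate resistant level 1.80-fold lower (1.67 to 1.94). The activator subunits PSME1 and PSME2 and the assembly factor POMP had 25.8, 75.3 and 401 CPM in fully resistant and 21.5, 56.6 and 362 CPM in sensitive cells. The constitutive subunits PSMB5, PSMB6 and PSMB7 were at 405, 366 and 367 CPM in fully resistant against 375, 344 and 328 in sensitive cells, and 0 of the 3 were called in any comparison.

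Class I promoters are bound by an enhanceosome of RFX5, RFXAP, RFXANK, NFY and CREB or ATF factors, on which NLRC5 acts as the class I coactivator. Of 10 such genes, 8 were tested in fully resistant over sensitive cells, with 1 called higher and 1 lower and a median log2 ratio of -0.07. As 15.2% of all genes were called higher and 14.7% lower, the list was near the shares over all genes. RFXAP was the lower one, with 1780 UMIs in sensitive, 894 in intermediate resistant and 765 in fully resistant cells (18.7, 8.73 and 7.21 CPM). Its log2 ratio was -1.38 in fully resistant over sensitive cells (2.38 to 2.83-fold lower), and it was 2.14-fold lower in intermediate resistant than in sensitive cells (1.98 to 2.33). RFXANK was the higher one, at 30.9 CPM in sensitive, 31.1 in intermediate resistant and 51.3 in fully resistant cells.

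The remaining factors moved less than the call ratio. RFX5 had 17.4 CPM in fully resistant and 19.0 in sensitive cells, NFYA 9.95 and 10.0, NFYB 39.4 and 27.1, NFYC 26.0 and 30.1, CREB1 30.2 and 33.1, and ATF1 18.3 and 15.8. NLRC5 had 56 UMIs in sensitive, 21 in intermediate resistant and 8 in fully resistant cells (0.589, 0.205 and 0.0754 CPM), below the minimum. Its fully resistant level was 7.81-fold lower than the sensitive one (3.71 to 19.0). The order of libraries was that of B2M, at a far smaller number of UMIs. NLRC5 had 0 UMIs in barcodes of 1 to 50 UMIs in every library. The upper Poisson limits there were 1.36 CPM (sensitive), 1.185 (intermediate resistant) and 1.244 (fully resistant), above the levels in cells. These counts of 0 therefore do not show a lower level there than in cells. CIITA, the class II coactivator, had 10, 6 and 4 UMIs.

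**Figure D5:**
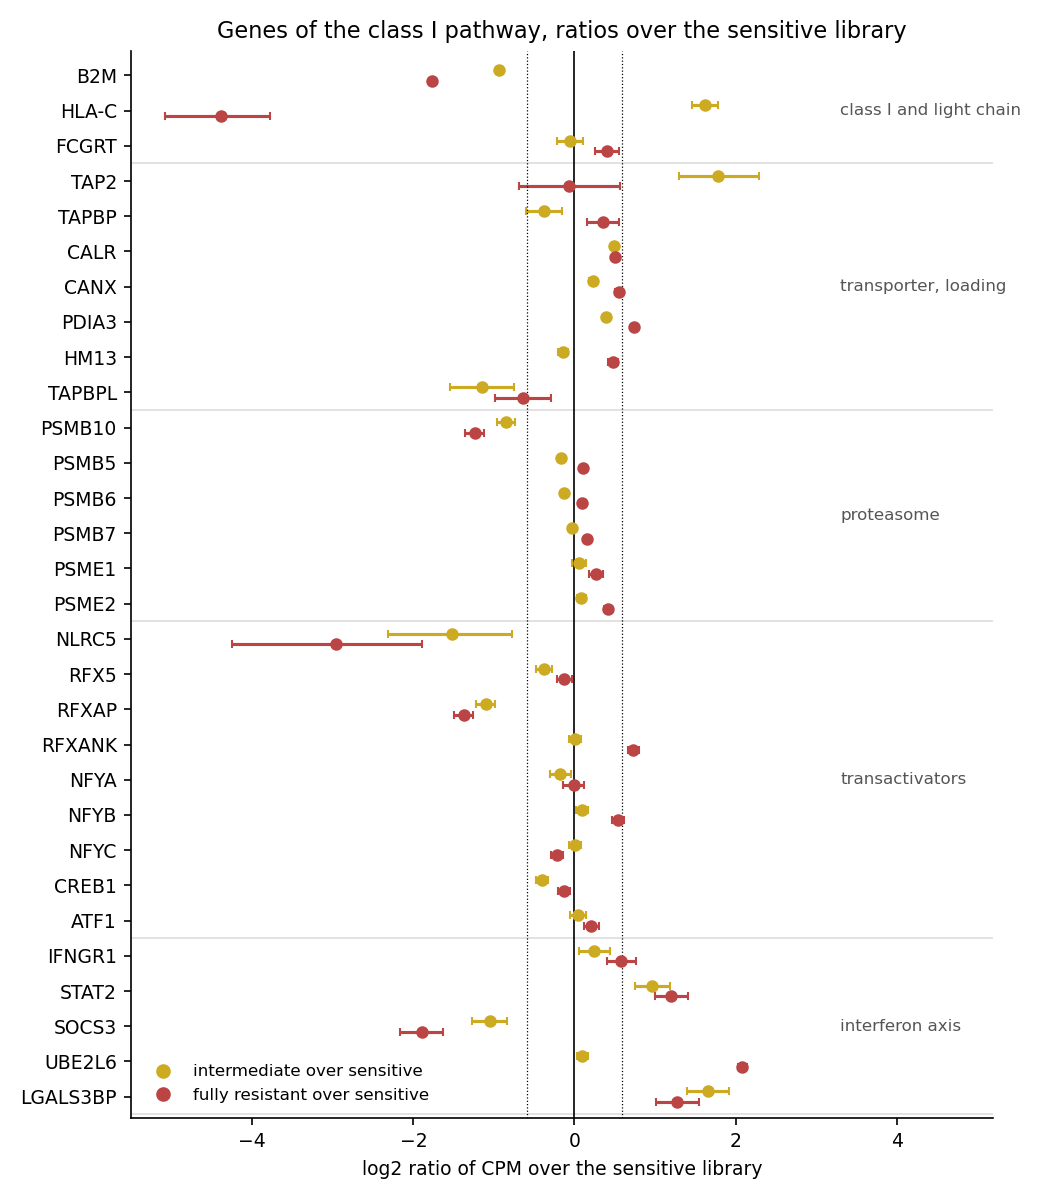
Log2 ratio of CPM over the sensitive library for intermediate resistant (yellow) and fully resistant cells (red), with exact conditional Poisson 95% intervals; dotted lines mark a ratio of 1.5 in either direction. B2M, PSMB10, NLRC5, RFXAP and SOCS3 are negative in both resistant libraries, HLA-C is positive in one and negative in the other, and the constitutive proteasome subunits lie near 0.

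Interferon signalling genes showed no common direction. Of 15, 10 were tested in fully resistant over sensitive cells, with 1 called higher, 1 lower and a median log2 ratio of 0.00209. The shares over all genes were 15.2% called higher and 14.7% lower. STAT2, part of the type I interferon transcription complex, was the higher one at 2.74 CPM in sensitive, 5.35 in intermediate resistant and 6.32 in fully resistant cells. SOCS3, a feedback inhibitor of JAK and STAT signalling, was the lower one at 5.46, 2.64 and 1.47 CPM in the same order. IFNGR1, a chain of the interferon gamma receptor, had 4.29, 5.09 and 6.41 CPM.

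Of 23 interferon-stimulated genes, 3 were tested in fully resistant over sensitive cells, with 1 called higher and 0 lower, beside 15.2% and 14.7% over all genes. UBE2L6, the conjugating enzyme of ISG15, was 4.23-fold higher in fully resistant than in sensitive cells, at 31.5 CPM in sensitive, 33.7 in intermediate resistant and 133 in fully resistant cells. LGALS3BP, a secreted glycoprotein, was called higher in intermediate resistant over sensitive cells (5.13 against 1.63 CPM), and IFI27 had 401, 545 and 425 UMIs in sensitive, intermediate resistant and fully resistant cells. Of genes below the minimum, and chosen after their values were seen, the RNA sensors OAS3 and OAS1 had 383 and 157 UMIs in sensitive, 2 and 67 in intermediate resistant and 0 and 0 in fully resistant cells. With a floor of 3 UMIs in the fully resistant library, OAS1 was at least 58.4-fold lower and OAS3 at least 142-fold lower than in sensitive cells. Other genes of the list below the minimum, chosen in the same way, went in the opposite direction. BST2, a tether of budding viruses, had 148 UMIs in sensitive, 123 in intermediate resistant and 467 in fully resistant cells, a fully resistant level 2.83-fold the sensitive one (2.35 to 3.43). IFI35 had 173, 186 and 503 UMIs in the same order, and IFI44L 1, 0 and 67.

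NF-kappaB genes were not called against the sensitive library. Of 9, 6 were tested, with 0 called in fully resistant over sensitive and 0 in intermediate resistant over sensitive cells. The shares over all genes were 15.2% higher and 14.7% lower in the first comparison and 5.83% and 12.2% in the second. In fully over intermediate resistant cells 2 were called higher and 0 lower, beside the background of 13.8% called higher. NFKBIB, an inhibitor of NF-kappaB, was at 41.3 CPM in sensitive, 32.6 in intermediate resistant and 55.1 in fully resistant cells, and NFKB1, a subunit, at 7.36, 5.78 and 9.49 CPM. Their log2 ratios of fully over intermediate resistant were 0.76 and 0.72, and with TMM scaling that of NFKB1 was 0.57, below the ratio for a call. NFKBIE was at 10.4, 7.03 and 9.13 CPM and REL at 17.4, 17.5 and 13.7 CPM.

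Of 7 repressors that have been linked to class I silencing, all 7 were tested, and EZH2, the Polycomb methyltransferase, was the gene called. It was at 155 CPM in sensitive, 129 in intermediate resistant and 237 in fully resistant cells. It was called higher in fully over intermediate resistant cells, with a log2 ratio of 0.87 and a range of 0.73 to 0.88 over the alternatives, and in fully resistant over sensitive cells, with a log2 ratio of 0.62. The second call did not hold with TMM scaling (0.52), median-of-ratios scaling (0.55), scaling without mitochondrial and ribosomal protein genes (0.56) or thinned cells (0.54). With 1 of 7 called higher, the list was near the share over all genes in both comparisons. That share was 13.8% in fully over intermediate resistant and 15.2% in fully resistant over sensitive cells. MTF2, EHMT1 and EHMT2 were at 152, 85.1 and 54.3 CPM in fully resistant against 122, 58.0 and 61.3 in sensitive cells.

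Among 14 other immune surface genes, 9 were tested in fully resistant over sensitive cells, with 4 called higher and 0 lower, beside a background of 15.2% called higher. CD59, an inhibitor of the complement attack complex, was at 13.0 CPM in sensitive, 27.4 in intermediate resistant and 31.2 in fully resistant cells. CD55, a complement inhibitor chosen after its values were seen, also reached the ratio and was at 5.59, 10.3 and 9.23 CPM. CD47, the signal that restrains phagocytes, was at 38.0, 36.9 and 71.1 CPM, and PVRL2, a nectin that natural killer and T cell receptors bind, at 3.70, 2.81 and 7.90 CPM. CD58, a T cell adhesion ligand, was called lower in intermediate resistant over sensitive cells (3.35 against 5.69 CPM). CD274 (PD-L1), chosen in the same way, had 3 UMIs in sensitive, 3 in intermediate resistant and 0 in fully resistant cells.

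Of 10 class II genes 0 were tested, and the 2 named here were chosen after their values were seen. CD74, the class II invariant chain, followed the order of HLA-C, with 225 UMIs in sensitive, 450 in intermediate resistant and 46 in fully resistant cells (2.37, 4.39 and 0.433 CPM). It was 5.46-fold lower in fully resistant than in sensitive cells (3.96 to 7.67), while HLA-DRA had 2, 0 and 0 UMIs in the order of dose.

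Position on the chromosome was set beside these ratios, with gene order from RefSeq. The 40 tested genes nearest to B2M on chromosome 15 had a median log2 ratio of 0.08 for fully resistant over sensitive, with 1 called lower and 6 higher, and of -0.08 for intermediate resistant over sensitive, with 1 lower and 0 higher. The 40 nearest to HLA-C on chromosome 6 had medians of 0.04 and 0.04, with 0 and 1 called lower. Of all genes tested, 15.2% were called higher and 14.7% lower in fully resistant over sensitive cells. In intermediate resistant over sensitive cells these shares were 5.83% and 12.2%. Neither neighbourhood shared the ratio of its gene.

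Over the 3 libraries, 5419 genes with at least 20 CPM in 1 of them were ranked by the distance of their 2 log2 ratios over the sensitive library from those of B2M. The nearest was IRF2BPL, a zinc finger gene, at 27.6, 14.7 and 7.96 CPM in sensitive, intermediate resistant and fully resistant cells (distance 0.0415). The actin-binding TAGLN2 (0.0830), the transcription factor ZFHX3 (0.0980), the replication licensing factor CDT1 (0.157) and BOLA3-AS1 (0.170), an antisense RNA, followed. With 2 ratios per gene, many genes lie close to any given one.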

How the data were processed

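Single-cell RNA was measured in 3 libraries of Kelly cells, grouped by the TAE684 response in the labels, with 1 library per group. The deposited values are raw UMI counts per gene and barcode in matrices of 737280 barcodes and 32738 gene rows. The submitters' processing notes name bcl2fastq, Cell Ranger and build hg19, with versions not given in the sources used here. Of the deposited per-sample columns 0 were unused.

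The 9 genes, the 11 gene lists and the 6 marker lists were chosen with earlier results of these data known. Genes named outside the members are all transactivator and loading genes, up to 4 tested genes per list with the greatest absolute log2 ratio, VIM, cell type markers and the 5 genes nearest to B2M; others are marked as chosen after their values were seen. Some genes that this rule names are not reported here. Counts were summed over called cells, doublets included, with exact Poisson, conditional Poisson and Clopper-Pearson 95% intervals. No test was run, because cells are not replicates. Where 1 library had 0 UMIs, the floor was 3 UMIs in that library. Exon overlaps came from a GRCh38 annotation, by gene name only, and gene order was matched by symbol for 20953 of 32738 rows. The ratio and call functions were checked on simulated counts. Python 3.11.15, numpy 2.4.6, scipy 1.17.1, pandas 2.3.3, Biopython 1.88 and, for TMM scaling only, edgeR 4.0.16 were used.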

Additional observations from a re-analysis of the deposited data

Results flagged for a closer look

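Several class I genes and PTPRC were above the level of called cells in barcodes of 1 to 50 UMIs, which the comparisons between libraries do not use. PTPRC was at 5.90 CPM in the sensitive and 10.6 CPM in the intermediate resistant library. HLA-B was at 9.22 and 5.14 CPM and HLA-E at 5.53 and 3.21 CPM in the same order. In the fully resistant library these 3 genes had 0, 1 and 1 UMIs there. Barcodes with leukocyte marker UMIs were not shared between libraries, but they numbered only 42 (sensitive), 85 (intermediate resistant) and 3 (fully resistant). What the lack of sharing means was not tested. With free RNA subtracted from cells the B2M log2 ratios over the sensitive library were -1.76 for fully resistant and -0.95 for intermediate resistant cells. The amount subtracted, 100 UMIs per cell, was assumed and too small to move these ratios far.

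HLA-C had opposite signs against the sensitive library, with a log2 ratio of -4.39 for fully resistant and 1.62 for intermediate resistant cells. Both ratios share the sensitive library, and the difference between them was not tested.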

How the results depend on the processing

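No paired analysis was possible because each state had 1 library. Of 11 alternatives, a ratio of at least 2 and no minimum CPM do not change a log2 ratio and were left out of the signs and ranges. Another 3 only scale all genes of a library by 1 factor. Over the alternatives read, the log2 ratios of the 54 named gene comparisons called kept their sign in all 54. Of 122 not called 102 kept it. B2M ranged from -1.86 to -1.76 for fully resistant over sensitive, from -0.95 to -0.87 for intermediate resistant over sensitive and from -0.97 to -0.81 for fully over intermediate resistant; HLA-C ranged from -4.49 to -4.34, from 1.57 to 1.69 and from -6.16 to -5.91. Scaling without mitochondrial and ribosomal protein genes brought TAPBP and, in fully resistant over sensitive cells, HLA-C over the minimum. In fully resistant over sensitive cells 2 members, B2M and HLA-C, were then lower, against 1900 of 11042 genes. In fully over intermediate resistant cells 1 member, TAPBP, was higher, against 1233 of 10886 genes. The member medians in the 3 comparisons, in the order used above, were -1.81, -0.31 and -0.94. The median in fully resistant over sensitive cells was -1.86 with TMM and -1.83 with median-of-ratios scaling. A ratio of at least 2 left 0 members lower in intermediate resistant over sensitive cells, against 458 of 9529 genes. It left 1 lower in fully over intermediate resistant cells, against 376 of 9614 genes. Without a minimum CPM 5 members were lower in fully resistant over sensitive cells, against 4145 of 19849 genes. HLA-B (5 against 16 UMIs), HLA-E (11 against 18) and PSMB9 (1 against 3) were among the 5. In intermediate resistant over sensitive cells 2 were higher and 3 lower, against 3492 and 3529 of 19603 genes. In fully over intermediate resistant cells 1 was higher and 5 lower, against 4186 and 3513 of 19960 genes. The medians in the last 2 comparisons were -0.37 and -1.19. With cells thinned to 5000 UMIs TAPBP again passed, giving medians of -0.69 and -0.83 for fully resistant over sensitive and over intermediate resistant cells. In the last of these 1 member was higher, against 1360 of 9632 genes.

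TMM scaling moved the median log2 ratio of all genes to 0.00177, against 0.15, in fully over intermediate resistant cells, and the share of calls that were higher to 46.8%, against 63.0%; median-of-ratios scaling gave 51.03% and scaling without mitochondrial and ribosomal protein genes 50.3%.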
